A study of Danio rerio with 20 samples.

Results

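The sites bound by Raraa, a zebrafish retinoic acid receptor, were compared between the early segmentation embryo at 5 somites and the embryo at 24 hours post fertilisation (hpf). The comparison rests on 4 of the 20 libraries of the study, namely replicates 1 and 2 of each stage, all made with the same anti-RARaa antibody from wild-type, untreated whole embryos. A site was taken as present at a stage when a peak of replicate 1 and a peak of replicate 2 overlapped by at least 1 bp on any of the 25 assembled chromosomes. By this rule 29853 sites were present at 5 somites and 25315 at 24 hpf, and merging both sets gave 46742 regions. The study also profiled Raraa, Hoxb1b, Meis2b and Sox3 at 80% epiboly, late in gastrulation, in control embryos and in embryos given 0.1 µM all-trans retinoic acid (atRA) at 30% epiboly, with 2 libraries a group. Those 16 libraries enter here only as an earlier readout of the same positions. The treatment label of every sample names collection at 80% epiboly, so the stages of the later samples were taken from their titles and stage entries. The labels do not say whether replicates came from separate clutches, and differences between replicates may therefore be partly technical.

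Retinoic acid receptors bind DNA as heterodimers with retinoid X receptors, typically at direct repeats of a hexamer half-site. Without ligand they can hold co-repressors at a site, and ligand exchanges these for co-activators, so a receptor can occupy a site before the gene is active. In the vertebrate embryo retinoic acid is made in the somites and lateral mesoderm, is broken down by Cyp26 enzymes at the front and tail of the axis, and patterns the hindbrain, heart field, foregut and somites during the interval studied. Whole embryos mix all these tissues, so a site missing from a list may be bound in few cells. Fewer cells holding a bound site and less binding per cell cannot be told apart in these data. Positions are given in GRCz10 (danRer10). Neighbouring genes and DNA sequence were not analysed here, because no annotation or genome of that build was used.

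The 4 peak lists were of nearly equal length. At 5 somites 109146 and 116351 peaks were called in replicates 1 and 2, a mean of 112748.5 ± 5094.7 (SD, n = 2). At 24 hpf the numbers were 115452 and 112006, a mean of 113729.0 ± 2436.7 (SD, n = 2). The stages overlapped, and the difference of 0.0131 in mean log2 peak number was within the replicate spread (two-sided exact permutation p = 1, where this design allows no p below 0.33). The read depth itself is unknown. A background index recovered from the authors' peak values, in fragments covering a base, was 0.538 and 0.393 at 5 somites and 0.686 and 0.562 at 24 hpf, a range of 1.75-fold. The index was thus higher in both 24 hpf libraries, and it varied more than the peak numbers did. Replicate 1 of 24 hpf stood apart in other ways. Its shortest peaks were 115 bp long against 130 to 136 bp in the other 3 libraries, and it held 11213 peaks with a q-value of at most 1e-05 against 23856 to 29202. Its part in the results below was not tested, and the main ones are also given without it.

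Most Raraa peaks were seen in a single library. The 4 lists merged into 324847 regions, of which 74.1% held a peak of exactly 1 library, 17.1% of 2, 5.98% of 3 and 2.84% of 4. Among the 55428 regions with exactly 2 libraries, 10640 combined both 5 somites libraries and 8561 both 24 hpf libraries. The combinations across stages held 7734 to 10550 regions, so the replicate pairs did not stand clear of them. Among regions with exactly 3 libraries, 33.9% lacked only 24 hpf replicate 1, whereas 21.4% to 23.2% lacked any other single library.

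Over complete lists, stage accounted for little of the overlap between libraries. Replicates shared 27.1% of their peaks at 5 somites and 22.8% at 24 hpf, while library pairs across stages shared 21.6% to 27.2%. The highest value of all came from 5 somites replicate 1 with 24 hpf replicate 2. Overlap within stages exceeded overlap between stages by 0.515 points. Since 4 libraries can be split into pairs in only 3 ways, the one-sided exact permutation p of 0.33 is the smallest the design can give. Without 5 somites replicate 1 the difference was -1.34 points and without 5 somites replicate 2 it was -1.97, so the sign changed with either 5 somites library left out. Without 24 hpf replicate 1 it was 0.167 points, and without 24 hpf replicate 2 it was 5.2.

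Among the strongest peaks the 5 somites replicates stood apart from every other pair. Of the 1000 strongest peaks of each library, 5 somites replicates shared 72.2%, 24 hpf replicates 58.2% and pairs across stages 55.1% to 59.4%. The 5 somites pair lay above every other pair, and the 24 hpf pair lay within the range of the pairs across stages. The difference within against between stages was 8.09 points in this selection (one-sided exact permutation p = 0.33).

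**Figure D1:**
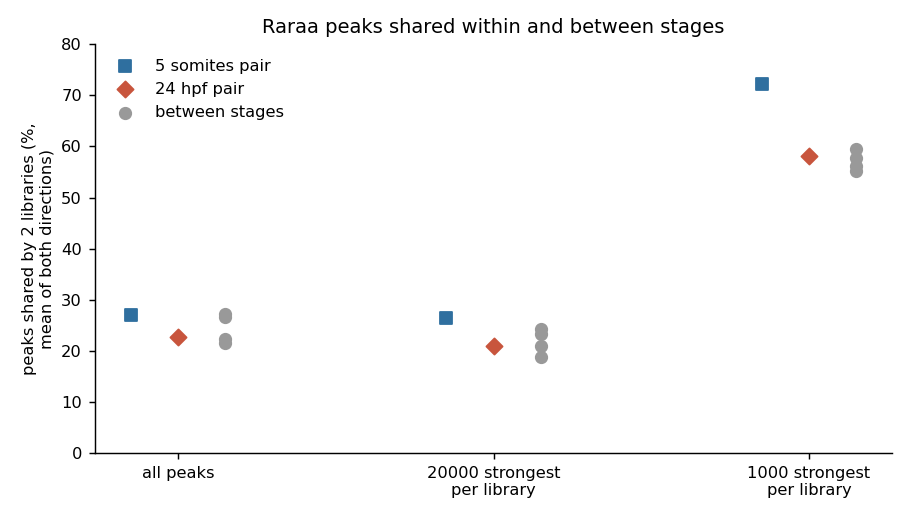
Percentage of Raraa peaks shared by 2 libraries (vertical axis, mean of both directions) for complete lists and for the 20000 and 1000 strongest peaks of each library. Each point is a pair of libraries; the 5 somites pair reaches 72.2% among the 1000 strongest, while the 24 hpf pair (58.2%) lies among the 4 pairs across stages.

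The merged regions divided into 8170 kept sites, present at both stages, 17013 gained sites, present at 24 hpf only, and 21559 lost sites, present at 5 somites only. These are 2.52%, 5.24% and 6.64% of the 324847 regions with a peak in any of the 4 libraries. Of the regions present at 5 somites 27.5% were kept, and of those present at 24 hpf 32.4%. Since all 3 shares follow from the rule, they describe the lists and carry no test. When 24 hpf replicate 2 alone defined that stage, 50.4% of the 5 somites sites were kept, and with 24 hpf replicate 1 alone 42.3%. When 5 somites replicate 1 alone defined its stage, 50% of the 24 hpf sites were kept, and with replicate 2 alone 48.8%. Asking for peaks in 3 libraries in place of 4 thus raised the share kept by over 1.5 times in the 5 somites sites.

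Absence from a stage was often partial. Of the gained sites 8561 (50.3%) had no peak in either 5 somites library and 8091 (47.6%) had a peak in exactly 1 of them. A further 361 (2.12%) had peaks in both that did not overlap each other. Of the lost sites 10640 (49.4%) had no peak in either 24 hpf library, 10301 (47.8%) had a peak in 1, and 618 (2.87%) had peaks in both. The lost sites with a peak in exactly 1 library had it in 24 hpf replicate 2 in 61.1% of cases and in replicate 1 in 38.9%. For gained sites the corresponding shares were 52.0% in 5 somites replicate 1 and 48.0% in replicate 2. Some sites lay near the 1 bp limit: 10.5% of overlapping replicate pairs at 5 somites and 13.7% at 24 hpf overlapped by 50 bp or less, and 2232 and 2686 further pairs lay less than 50 bp apart.

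Kept sites were wider and more strongly covered than the others, which their definition favours, since they needed a peak in all 4 libraries. Their median width was 439 bp, where a kept region merges peaks of 4 libraries, against 248 bp for gained and 252 bp for lost sites with no peak at the other stage. The median kept summit was covered by 10 and 9 fragments in 5 somites replicates 1 and 2, and by 9 and 11 fragments in 24 hpf replicates 1 and 2. Lost sites with no 24 hpf peak had median pileups of 7 and 6 fragments in the 5 somites libraries. Gained sites with no 5 somites peak had 7 fragments in both 24 hpf libraries. Sites with some peak at the other stage lay between, with 8 and 7 fragments at lost sites and 8 in both libraries at gained sites. The authors' fold enrichment at kept summits had medians of 5.96 and 5.81 at 5 somites and of 5.09 and 5.88 at 24 hpf. For the lost sites with no 24 hpf peak the medians were 4.81 and 4.79, and for the gained sites with no 5 somites peak 4.35 and 4.81. Most gained and lost sites thus lay a few fragments above the local background, which had medians of 0.663 and 0.462 fragments at these lost sites and 0.793 and 0.675 at these gained sites.

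**Figure D2:**
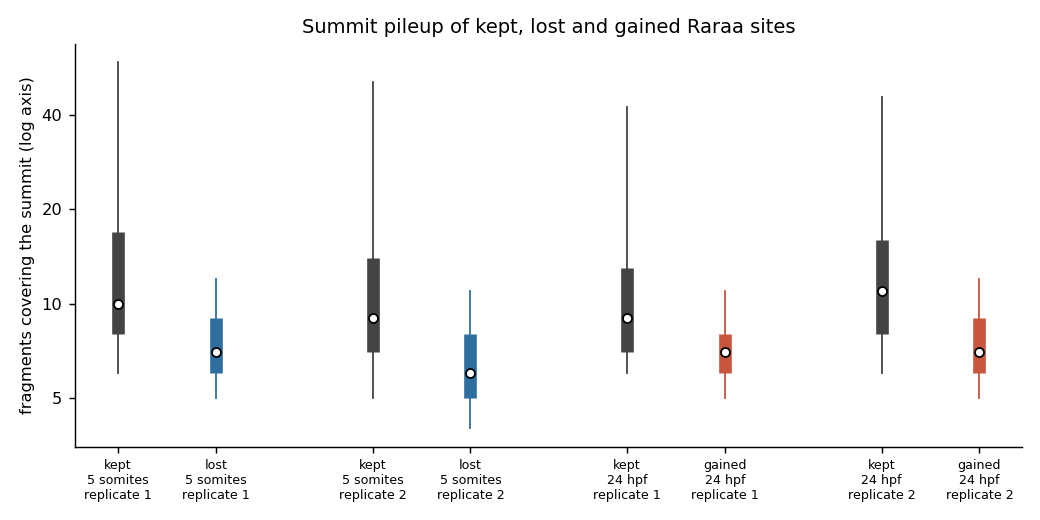
Fragments covering the summit (log axis) in each library for kept sites and for lost and gained sites with no peak at the other stage. Circles are medians, thick bars span the quartiles and thin lines the 5th to 95th percentiles over sites; medians are 9 to 11 fragments at kept sites and 6 to 7 at the others.

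Strong sites persisted. Ranked by the authors' p-value at their own stage, all 100 of the 100 strongest 5 somites sites were also present at 24 hpf, as were 98.8% of the 500 strongest and 95.4% of the 1000 strongest. The share then declined to 66.5% of the 5000 strongest, 49.4% of the 10000 strongest and 35.0% of the 20000 strongest. The 24 hpf sites followed nearly the same curve, with 99.4% of the 500 strongest, 96.8% of the 1000 strongest and 51.6% of the 10000 strongest present at 5 somites. Among the 5000 weakest sites 10.4% were kept at 5 somites and 13.6% at 24 hpf. Full absence was rare among strong sites. Only 5 of the 1000 strongest 5 somites sites had no peak in either 24 hpf library, and only 3 of the 1000 strongest 24 hpf sites had none at 5 somites. With 24 hpf replicate 2 alone defining its stage, 98.0% of the 1000 and 71.1% of the 10000 strongest 5 somites sites were kept. Both the rank and the class come from the same lists, and the ranking was added after the data had been seen, so this curve is a description.

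**Figure D3:**
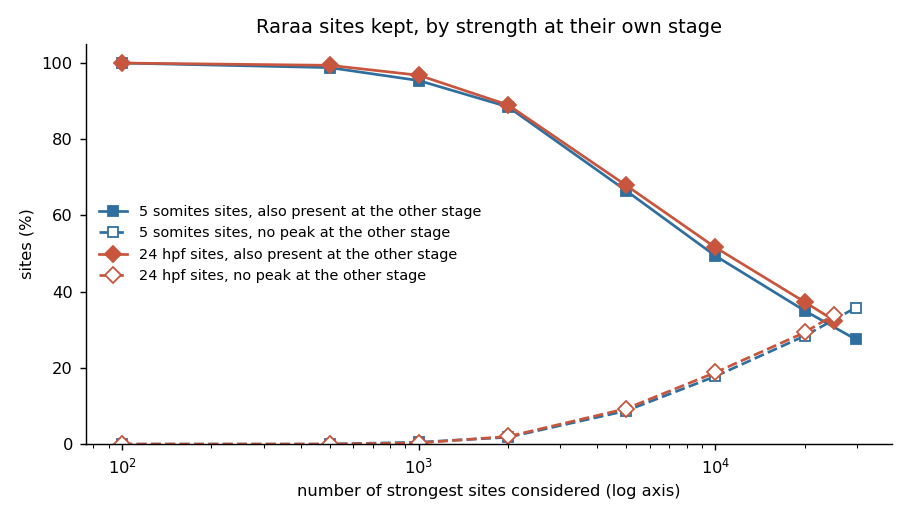
Percentage of sites (vertical axis) also present at the other stage (solid lines) or with no peak in either library of the other stage (dashed lines), among the strongest sites of a stage (horizontal axis, log scale). Solid lines start at 100% for the 100 strongest sites and end at 27.5% and 32.4% when all sites are counted.

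The strongest kept sites were near the top of every list. The site at chr20:4437650-4438058 ranked first in all 4 libraries, with fold enrichments of 33.6 and 35.5 at 5 somites and 30.9 and 36.4 at 24 hpf. Its summit was covered by 211, 210, 170 and 217 fragments in the same order. The site at chr17:53292593-53292891 had fold enrichments of 32.3 and 34.5 at 5 somites and 31.0 and 33.9 at 24 hpf. The site at chr18:13162187-13162437 had the highest fold enrichment of the named sites, 41.5 and 41.2 at 5 somites and 37.9 and 37.5 at 24 hpf. The remaining named kept sites were chr24:38404511-38404973, chr5:826018-826725 and chr22:39221228-39222319, with fold enrichments between 12.5 and 25.4. The chromosome 17 and 22 sites lay close to the last peaks called on their chromosomes, which ended at 53.3 and 39.2 Mb. In each of the 6 the fold enrichments of the 4 libraries were close, whereas the summit pileup at the chromosome 5 site was 76 fragments in 24 hpf replicate 1 against 183 to 216 in the other libraries. All 6 also held a peak in every one of the 16 libraries at 80% epiboly, whichever of the 4 antibodies was used, so a peak there was not limited to the Raraa antibody. Over all kept sites, 344 (4.21%) had a peak in all 16 of those libraries, as did 12 gained and 39 lost sites. Among the 1394 kept sites with a mean 5 somites rank up to 2000, the median site had a peak in 12 of the 16. The share with a peak in both libraries of a group ran from 29.6% (Meis2b control) to 94.5% (Raraa atRA). With Sox3 atRA it was 88.2%.

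The best-ranked gained sites, chosen among those with no peak in either 5 somites library, were weaker than the named kept sites. The first was chr8:26496198-26496513, with fold enrichments of 10.2 and 10.3 in 24 hpf replicates 1 and 2 and summits of 18 and 17 fragments. At chr13:35962840-35963183 the values were 7.94 and 10.5, with 18 and 21 fragments. At chr20:23864966-23865394 they were 10.2 and 8.32, with 25 and 19 fragments. The others were chr18:16238493-16238789, chr6:6404893-6405321 and chr6:37534534-37535192. Over all 6 the fold enrichment ran from 7.36 to 10.2 in replicate 1 and from 7.44 to 10.5 in replicate 2. All 6 had earlier peaks in the series: they held peaks in 3 to 13 of the 16 libraries at 80% epiboly. An earlier peak was usual for such sites. Of all gained sites with no 5 somites peak only 15.6% had none in these libraries, and the median was 2 libraries. A Raraa peak was found in both gastrula control libraries at 3 of them (the chromosome 13 site and both chromosome 6 sites) and in 1 at another 2. Over all gained sites with no 5 somites peak the share with both was 2.16%, and among the 1000 strongest of these 4.80%. The named sites therefore do not stand for their class.

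The best-ranked lost sites, with no peak in either 24 hpf library, reached somewhat higher values. At chr25:34442709-34443054 the fold enrichment was 14.6 and 12 in 5 somites replicates 1 and 2, with summits of 41 and 27 fragments. At chr18:50552798-50553094 it was 12.5 and 11.8, with 36 and 30 fragments. At chr11:30528701-30529020 it was 15.3 and 14.0, with 24 and 20 fragments. The others were chr5:21553402-21553826, chr6:59818626-59818864 and chr23:23989147-23989409. Over all 6 the range was 9.33 to 15.3 in replicate 1 and 11.0 to 14.0 in replicate 2. Raraa peaks were present in both gastrula control libraries at the chromosome 18, 11 and 5 sites, in 1 at the chromosome 25 and 6 sites, and in neither at the chromosome 23 site. Over all lost sites with no 24 hpf peak the share with both was 2.62%, and among the 1000 strongest of these 7.10%. Against the gained sites, folds were set beside folds of other lists, so the difference in height was not tested. The background index over whole lists was higher at 24 hpf, but the local background at the named gained and lost sites was not compared.

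A few sites were strong at a stage and weak at the other. Of the 46742 sites, 720 were among the 1000 strongest peaks of both 5 somites libraries, 577 among those of both 24 hpf libraries, and 417 among those of all 4. Just 12 of the 720 were outside the 20000 strongest in both 24 hpf libraries, and 5 of the 577 were outside the 20000 strongest in both 5 somites libraries. When 24 hpf replicate 2 alone stood for its stage the counts were 40 and 41. These cut-offs and the sites named next were chosen after the values had been seen.

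The clearest decline at a kept site was at chr6:25009262-25009694, where the fold enrichment was 20.6 and 18.4 at 5 somites and 5.05 and 4.25 at 24 hpf. The summit there was covered by 53 and 40 fragments and then by 8 and 6. At chr3:37805-38203 the fold enrichment was 14.8 and 13.5 at 5 somites and 4.89 and 4.33 at 24 hpf. The stages did not overlap at either site, which largely follows from the selection by rank. The other 10 of the 12 counted as lost, and 3 of them are the chromosome 25, 18 and 11 sites named among the lost sites above. At chr22:12351208-12351512, for example, the fold enrichment was 16.4 and 16.7 at 5 somites, 4.37 in 24 hpf replicate 1, and no peak was called in 24 hpf replicate 2. A further 3 lost sites, chr8:54171943-54172956, chr12:48938341-48939290 and chr20:99407-100809, were 950 to 1403 bp wide and stood on a local background of 4.42 to 20.8 fragments in the 5 somites libraries, against 0.503 to 1.96 at the other 9. These 3 and the chromosome 3 site lay close to a chromosome end. The last peaks called on chromosomes 8 and 12 ended at 54.2 and 49.2 Mb. The part of this position in the declines was not tested. The chromosome 12 and 20 sites held weaker peaks in both 24 hpf libraries that did not overlap each other. Their fold enrichments were 3.95 and 4.0, and 4.0 and 5.32. The chromosome 8 site held a peak in 24 hpf replicate 1 only, at 3.99.

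In the opposite direction, chr18:24012058-24012332 had a fold enrichment of 12.7 and 15.2 at 24 hpf with 23 and 30 fragments, while at 5 somites it was called only in replicate 2, at 5.74 with 7 fragments. At chr2:46055737-46056156 the values were 9.79 and 13.8 at 24 hpf, and 5.2 in 5 somites replicate 1 only. The other 3 were kept sites. At chr11:11102579-11102856 the fold enrichment was 5.85 and 5.02 at 5 somites and 13.0 and 11.4 at 24 hpf. At chr3:12152122-12152711 it was 5.85 and 4.1, then 10.9 and 13.3, and at chr24:35568302-35568676 it was 5.2 and 5.02, then 10.7 and 13.3. Each of the 5 sites had higher values in both 24 hpf libraries than in either 5 somites library with a peak. That separation largely follows from their selection by rank and is no further support. No single site was tested.

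**Figure D4:**
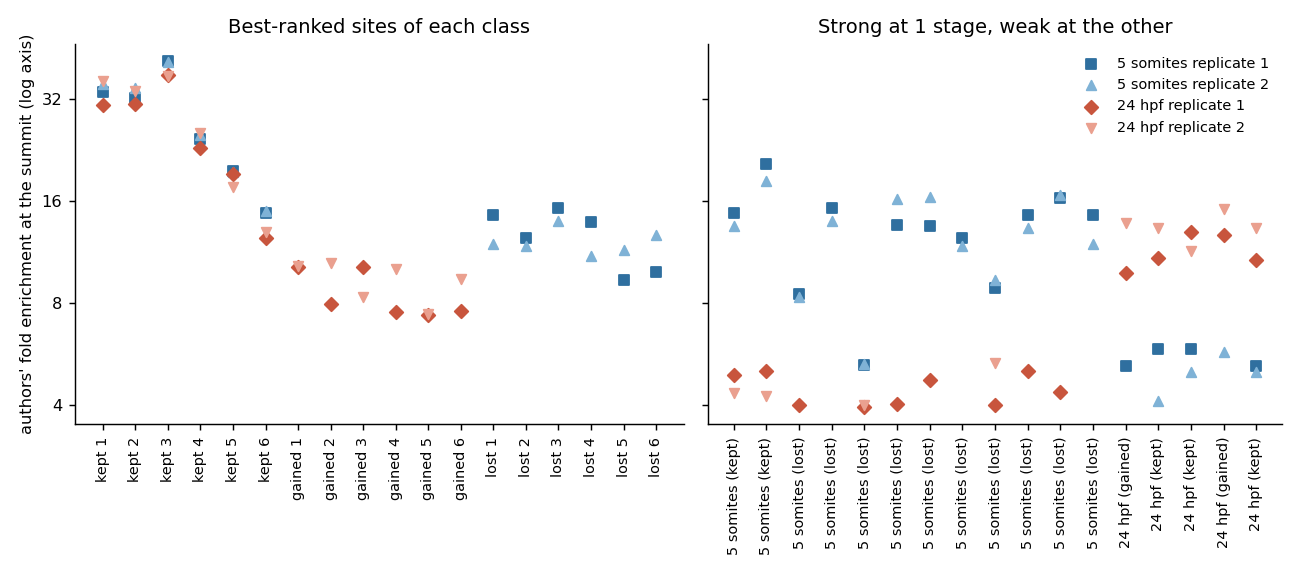
The authors' fold enrichment at the summit (log axis) in each of the 4 libraries, for the 6 best-ranked kept, gained and lost sites (left) and for the 17 sites among the 1000 strongest at a stage and outside the 20000 strongest at the other (right, grouped by the stage at which they were strong, class in brackets). A missing symbol means no peak in that library; the 6 kept sites on the left have 4 symbols close together between 12.5 and 41.5.

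The gastrula libraries gave a readout that the rule had not used. Kept sites had been occupied at 80% epiboly far more often than gained or lost sites, with all 8 combinations of antibody and treatment. Here and below, a gastrula site at a region means a peak of both libraries of a group in that region. These peaks did not have to overlap each other, which is easier to meet in wider regions. Raraa itself was present in both control gastrula libraries at 31.8% of kept sites, 4.31% of gained sites and 5.29% of lost sites. With Raraa after atRA the shares were 55.7%, 15.7% and 16.1%. Over all 46742 sites the control and atRA shares were 9.56% and 22.9%. Regions with a peak in only 1 of the 4 later libraries gave 0.626% and 3.20%. Raraa sites covered 0.223% of the chromosome span in control and 0.938% in atRA gastrulae. Coverage counts bases, whereas the shares count regions touched by at least 1 bp, so coverage is not the share expected by chance. Raraa control replicate 1 at 80% epiboly held 23920 peaks against 131936 in replicate 2, so the control shares are limited by the shorter list. The atRA shares are limited in the same way, with 254915 peaks in replicate 1 and 59938 in replicate 2. With a peak in either control library as the criterion, the Raraa shares were 77.5% of kept, 43.2% of gained and 44.9% of lost sites, a smaller contrast in the same order. Kept sites were also the widest. They needed a peak in all 4 later libraries as well, which favours sites that are easily detected in any list. With some peak at the other stage, the Raraa control share was 6.48% of gained and 7.89% of lost sites. With none it was 2.16% and 2.62%. The parts of width and of ease of detection in the higher shares of kept sites were not tested.

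With the other antibodies too, kept sites had the highest share in every group, while lost sites lay above gained sites in all 3 control groups and below them in all 3 atRA groups. Sox3, a SoxB1 factor of neural progenitors, had a control gastrula site at 48.9% of kept, 19.1% of gained and 20.5% of lost sites. Hoxb1b, a Hox factor of the early hindbrain, had an atRA site at 54.0% of kept, 18.7% of gained and 18.4% of lost sites, and a control site at 19.2%, 4.02% and 5.16%. Over all sites the Hoxb1b shares were 24.7% in atRA and 7.19% in control, from lists of 31462 and 6679 sites. Meis2b, a TALE homeodomain partner of Hox proteins, had an atRA site at 33.0% of kept, 8.85% of gained and 8.67% of lost sites. In control gastrulae its shares were 16.8%, 3.61% and 4.25%. Over all sites the Meis2b shares were 13.0% in atRA and 6.2% in control, from lists of 16427 and 5619 sites. Sox3 after atRA was the most frequent, at 66.4% of kept, 28.7% of gained and 27.6% of lost sites. Its share over all sites was 34.8%, and its list of 63239 sites was the longest of the 8 groups. The part of list length in this rank was not tested. Kept sites were still highest in all 8 groups when 24 hpf replicate 2 alone defined its stage, with Raraa control at 21.4% of kept and 3.69% of lost sites and Sox3 atRA at 56.0% and 20.5%. The order of gained and lost sites turned in the 3 atRA groups, for example to 16.7% of gained against 20.5% of lost sites with Sox3. Gained sites then needed a peak in a single list and numbered 96133, while lost sites still needed both 5 somites libraries. The turn therefore cannot show whether the order depended on 24 hpf replicate 1.

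Sites of all 4 antibodies also coincided more often at kept sites. The lists come from separate libraries of whole embryos, so binding of the factors together was not tested. In atRA gastrulae, sites of all 4 antibodies lay at 25% of kept sites, 3.85% of gained sites and 4.03% of lost sites. No antibody had a site in these embryos at 21.9% of kept, 62.6% of gained and 64.0% of lost sites. In control gastrulae the shares with all 4 antibodies were 4.9%, 0.0999% and 0.283%, and with none 35.1%, 75.2% and 72.9%. The atRA list was the longer for each antibody. Each antibody alone also had a higher share at kept sites, and the part of this in the coincidence was not tested. The median kept site had a peak in 9 of the 16 gastrula libraries, and the median gained and lost site in 3. Gained sites with no 5 somites peak and lost sites with no 24 hpf peak both had a median of 2. Only 60 kept sites (0.734%) had no peak in any gastrula library. Among gained sites with no 5 somites peak, 1338 (15.6%) had none, and among lost sites with no 24 hpf peak, 1697 (15.9%) had none. The gained and lost classes were thus close in their share of sites without any earlier peak.

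**Figure D5:**
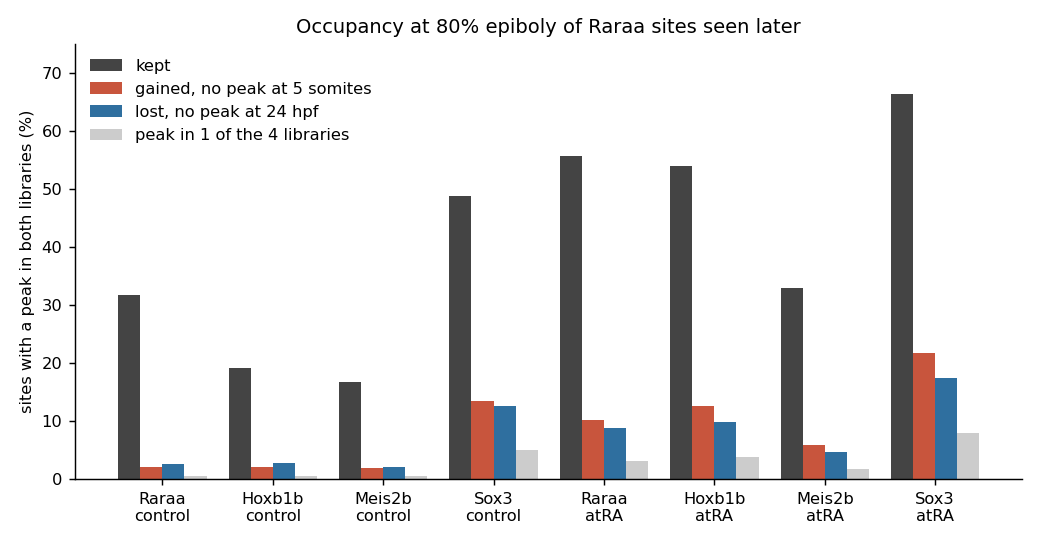
Percentage of sites (vertical axis) with a peak in both libraries of each 80% epiboly group, for kept sites, for gained and lost sites with no peak at the other stage, and for regions with a peak in only 1 of the 4 libraries. Kept sites have the tallest bar in all 8 groups, up to 66.4% with Sox3 after atRA.

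Kept sites are stronger, so the shares were also compared within bands of strength, chosen after the totals had been seen. Among 5 somites sites with a mean rank between 10000 and 30000, Raraa control gastrula sites lay at 21.6% of 1984 kept sites, 10.9% of 2366 lost sites with some 24 hpf peak and 4.27% of 1452 lost sites with none. In the same order the Sox3 control shares were 51.1%, 35.1% and 17.9%. Among 24 hpf sites in that band the Raraa control shares were 27.0% of 2049 kept sites, 8.87% of 1758 gained sites with some 5 somites peak and 3.81% of 1102 gained sites with none. Sox3 control shares were 51.9%, 32.2% and 20%. Beyond rank 30000 the Sox3 control shares at 24 hpf were still 41.2%, 21.5% and 12.3%. Between ranks 2000 and 10000 at 5 somites, the Sox3 control shares of kept and lost sites were closer. They were 58.7% of 1514 kept, 50.6% of 747 lost sites with some 24 hpf peak and 31.5% of 241 with none. The Raraa control shares there were 41.8%, 24.2% and 10.8%. At 24 hpf in that band the Sox3 control shares were 57.8%, 38.2% and 23.1%. In each of these bands kept sites had the highest share and sites with no peak at the other stage the lowest. Up to rank 2000 at 5 somites, 1394 kept sites had a Sox3 control share of 59.2%. It was 52.0% at 98 lost sites with some 24 hpf peak. The Raraa control shares of the same sites were 78.5% and 44.9%. Ranks within a band were not matched between classes.

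Gained and lost sites differed from each other less than either did from kept sites. Among the 1000 strongest with no peak at the other stage, Raraa control gastrula sites lay at 4.80% of gained and 7.10% of lost sites, and Raraa atRA sites at 18.1% and 20.2%. With Sox3 after atRA the shares were 35.4% of gained and 31.7% of lost sites, and with Sox3 in controls 22.0% and 24.0%. With Hoxb1b after atRA they were 21.4% and 20.1%, and with Meis2b after atRA 9.70% and 9.10%. The lost share was the higher in some groups and the lower in others. Sites are not independent replicates of a stage, and these differences were not tested.

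Chromosome 4 was the sparsest chromosome for each class. Kept sites ranged from 4.38 per Mb on chromosome 4 to 7.41 per Mb on chromosome 23 (median over chromosomes 6.25). Gained sites ranged from 7.09 on chromosome 4 to 14.6 on chromosome 11 (median 13.0), and lost sites from 9.70 on chromosome 4 to 18.3 on chromosome 23 (median 16.4). The far end of chromosome 4 was sparser still, more so for gained and lost than for kept sites. Beyond 28 Mb that chromosome held 2.82 kept, 2.86 gained and 4.32 lost sites per Mb, against 7.11, 14.4 and 19.0 up to 28 Mb. The share of 5 somites sites that were kept lay between 23.3% (chromosome 9) and 31.1% (chromosome 4).

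Kept sites had a kept neighbour at shorter range than gained or lost sites did. A kept site had its nearest other kept site at a median of 35.3 kb, whereas the median distance to a kept site was 56.7 kb from a gained site and 57.2 kb from a lost site. Another kept site lay within 10 kb of 21.8% of kept sites, and a kept site within 10 kb of 12.3% of gained and 12% of lost sites. Gained and lost sites were interspersed, with a median distance of 19.7 kb from a gained site to the nearest lost site and 24.3 kb to the nearest other gained site.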

How the data were processed

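The files are MACS2-style peak lists in narrowPeak format. The submitters' processing notes name Bowtie, SAMtools and MACS2 and the build GRCz10 (danRer10), with no versions, and an input control is not given in the sources used here. Per the labels' protocols, chromatin was sonicated to about 300 bp, immunoprecipitated and tagged on the beads with Tn5. Each list came from a single library, per the peak names. The deposited columns are the fold enrichment (a ratio over local background), the −log10 p and the −log10 q of each summit, and the summit position; the largest q in a list was 0.05 or just below. These are the authors' values per peak and served for ranking and filtering within a list.

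Peaks on chromosomes 1 to 25 were kept. Summit pileup k and background b were recovered from fold enrichment (k+1)/(b+1) and the Poisson p, which solved 100% of the peaks of every library to within 0.002 in −log10 p. The background index is the 0.001 quantile of b. Peaks of both replicates overlapping by 1 bp formed stage sites, and overlapping sites of both stages were merged. A group at 80% epiboly occupied a site when both its libraries had a peak there, whether or not these peaks overlapped each other. The list sizes and the coverage of the gastrula groups count overlapping replicate peaks. Pileup recovery and the class counts were tested on simulated data, in which replicate peaks of a shared site always overlapped. Named sites are the 6 of each class with the best mean rank, at most 2 a chromosome, without chromosome 4 beyond 28 Mb; named gained and lost sites have no peak at the other stage. Members, lists and bands were chosen with earlier results of these data known. Tests are exact permutations over libraries. Python 3.11.15, numpy 2.4.6, pandas 2.3.3 and scipy 1.17.1 were used.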

Additional observations from a re-analysis of the deposited data

Results flagged for a closer look

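Peaks were also called outside the 25 assembled chromosomes, in sequence the comparison did not use. There were 2192 and 2424 such peaks in 5 somites replicates 1 and 2, and 2517 and 2326 in 24 hpf replicates 1 and 2, which is 1.97% to 2.13% of a list.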

How the results depend on the processing

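The counts of sites followed the definition of a shared peak and the threshold. With 50% reciprocal overlap 3206 sites were kept and 10433 gained (17.3% of 5 somites and 23.5% of 24 hpf sites kept). With summits within 150 bp 5368 were kept (20.2% and 23.6%). With −log10 q of at least 5 there were 1950 kept, 1640 gained and 4222 lost sites (31.6% and 54.3%). With the 20000 strongest peaks of each library there were 2019, 2092 and 3181 (38.8% and 49.1%). Counting only sites with no peak in either library of the other stage left 8561 gained and 10640 lost (43.4% and 48.8% kept among the sites then classed). Lost sites outnumbered gained sites in each of these settings. All of them included 24 hpf replicate 1, so these settings cannot show whether that order depended on this library. With 1 library left out at a time, kept sites numbered 12300 to 14986, gained 12605 to 102048 and lost 14753 to 103454, with 10.6% to 50.4% of 5 somites and 11.0% to 50% of 24 hpf sites kept. The extremes follow from defining a stage by a single list. The difference in log2 peak number was -0.479 with −log10 q of at least 5 (exact permutation p = 1), where 24 hpf replicate 1 held fewest peaks, and ran from -0.033 to 0.0592 with a library left out. Overlap within minus between stages was 1.74 points with the 20000 strongest peaks and 0.436 with reciprocal overlap, and ran from -1.97 to 5.2 with a library left out. Under a replicate block the log2 difference stayed 0.0131 (p = 1, exact sign flips, smallest p 0.5) and the overlap difference was 0.566 points. Nothing shows that equal numbers pair the samples. Of the named sites, 4 of 6 gained sites held their class with reciprocal overlap and 3 of 6 kept sites by summit distance; leaving out a library could not change their classes, given how they were chosen. Requiring a peak in either library, or −log10 q of at least 5, at 80% epiboly moved every occupancy share, and kept sites had the highest share in all 8 groups each time. The cause of these shifts was not tested. Gene windows and motif windows were not run, since no genome or annotation of GRCz10 was used. Summits of gained and lost sites with no peak at the other stage held 6 to 7 fragments at the median, read depth is unknown, and a site missing from a list is one that was not detected, not one shown to be unbound.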
